A study of Mus musculus with 24 samples.

Results

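The comparison set day 7 against day 3 after a partial-thickness skin wound, at the level of open chromatin in the cells that the hair follicle sends to close the wound. Peaks of the day 7 list and of the day 3 list were merged wherever they touched by at least 1 bp. Each of the resulting 41543 regions was classed as held by day 7 alone, by day 3 alone or by both days. Merging all 8 lists of the series in the same way gave 63188 regions. Day 7 alone held 5346 regions (12.9% of the 41543), day 3 alone held 6311 (15.2%), and both days shared 29886 (71.9%, exact 95% Clopper-Pearson interval 71.5% to 72.4%, counting error only).

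The day 7 group holds 2 samples and the day 3 group 3 samples, and each group has 1 deposited peak list. Both are labelled as hair follicle stem cell progeny that responded to a wound, sorted from skin of CD1 x C57BL/6J cross mice of the genotype Krt19-CreER/R26-YFP. In such mice an inducible Cre recombinase driven by the Krt19 promoter switches on a yellow fluorescent reporter in Krt19-expressing cells and their descendants. The other 6 lists served for comparison. From the same genotype came the partial wound at day 80, unwounded hair follicle stem cells at day 0 and unwounded epidermal stem cells at days 0 and 80. The full-thickness wound lists of days 7 and 80 came from Sox9-CreER/R26-YFP mice of the same cross and are labelled as epidermal stem cell progeny. The labels do not state the gates of the sort, the sex or age of the mice, or whether a list came from pooled samples. With 1 list per group there is no replicate check and no test between the days. A difference between the lists can hold differences between mice or libraries as well as between days, and these cannot be told apart.

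In ATAC-seq a transposase inserts adapters into DNA that is not covered by nucleosomes, so peaks mark active promoters and distal elements such as enhancers. Hair follicle stem cells rest in the bulge of the follicle. When the epidermis above is lost they leave the follicle, cover the wound, and take up the stem cell position of the basal epidermis, from which differentiating cells later build the barrier.

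Of the promoters that only 1 of the days held, 6 are shown. Each is the RefSeq sequence of GRCm38.p6 from 250 bases before to 50 bases after the start site, read along the gene. Capitals mark matches on either strand. The AP-1 site was searched as TGANTCA and the GC box as GGGCGG. The TATA box was searched as TATAAA and the CCAAT box by its own letters. NF-kB was searched as GGG, then NN, then TTTCC, with N any letter. That pattern was chosen after values were seen and is not the full NF-kB consensus. No motif's letters contain those of another. The first 3 lay in regions of day 7 alone and the last 3 in regions of day 3 alone. Tgm3 cross-links proteins of the cornified envelope, Wnt3 is a Wnt ligand, and Llgl1 is a cell polarity protein. Cxcl1 is a chemokine that draws neutrophils, Col17a1 is a collagen of the hemidesmosome that anchors basal cells, and Arhgef28 is a guanine nucleotide exchange factor for a small GTPase. The 6 were picked after their values and sequences had been seen.
Tgm3, chr2:130012090-130012389, plus strand: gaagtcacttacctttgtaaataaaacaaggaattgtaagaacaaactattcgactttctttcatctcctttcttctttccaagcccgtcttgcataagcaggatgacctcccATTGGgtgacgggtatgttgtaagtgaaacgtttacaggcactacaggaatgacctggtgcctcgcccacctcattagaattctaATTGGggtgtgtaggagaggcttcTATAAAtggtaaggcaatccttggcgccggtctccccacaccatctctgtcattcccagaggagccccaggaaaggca
Wnt3, chr11:103773925-103774224, plus strand: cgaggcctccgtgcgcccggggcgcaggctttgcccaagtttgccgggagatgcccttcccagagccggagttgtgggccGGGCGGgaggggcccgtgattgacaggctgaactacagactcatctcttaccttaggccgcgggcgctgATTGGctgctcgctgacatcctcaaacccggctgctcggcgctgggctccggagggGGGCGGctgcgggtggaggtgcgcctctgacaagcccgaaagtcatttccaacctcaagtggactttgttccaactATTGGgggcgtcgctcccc
Llgl1, chr11:60699450-60699749, plus strand: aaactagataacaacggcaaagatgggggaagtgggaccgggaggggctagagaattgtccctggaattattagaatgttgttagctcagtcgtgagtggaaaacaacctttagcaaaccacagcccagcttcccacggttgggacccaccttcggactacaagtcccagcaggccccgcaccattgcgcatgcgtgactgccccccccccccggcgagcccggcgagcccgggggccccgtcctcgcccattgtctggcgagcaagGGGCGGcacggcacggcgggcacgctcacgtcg
Cxcl1, chr5:90890995-90891294, plus strand: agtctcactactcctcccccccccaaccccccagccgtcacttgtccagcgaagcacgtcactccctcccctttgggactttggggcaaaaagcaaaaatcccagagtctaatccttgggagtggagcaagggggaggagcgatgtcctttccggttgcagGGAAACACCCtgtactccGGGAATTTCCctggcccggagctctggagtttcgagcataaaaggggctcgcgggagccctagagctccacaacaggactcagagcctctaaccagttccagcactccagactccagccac
Col17a1, chr19:47691993-47692292, minus strand: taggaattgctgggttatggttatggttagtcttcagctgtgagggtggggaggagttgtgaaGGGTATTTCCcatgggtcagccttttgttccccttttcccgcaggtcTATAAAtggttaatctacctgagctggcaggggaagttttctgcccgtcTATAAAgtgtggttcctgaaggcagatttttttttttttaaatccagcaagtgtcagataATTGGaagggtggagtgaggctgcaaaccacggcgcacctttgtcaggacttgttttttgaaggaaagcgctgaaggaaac
Arhgef28, chr13:98206116-98206415, minus strand: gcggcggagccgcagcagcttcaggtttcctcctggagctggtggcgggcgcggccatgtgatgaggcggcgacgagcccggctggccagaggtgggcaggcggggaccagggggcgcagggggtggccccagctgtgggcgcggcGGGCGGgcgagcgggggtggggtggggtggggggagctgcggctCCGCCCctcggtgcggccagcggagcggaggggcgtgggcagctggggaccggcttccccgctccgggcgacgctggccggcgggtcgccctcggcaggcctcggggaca

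The Tgm3 promoter held 1 TATA box and 2 CCAAT boxes, and the Wnt3 promoter 2 GC boxes and 2 CCAAT boxes. The Cxcl1 promoter held 2 NF-kB matches, letters found in 1.60% of all 21263 promoters of the table. The Col17a1 promoter held 2 TATA boxes, 1 CCAAT box and 1 NF-kB match. None of the 6 held the AP-1 letters. These matches describe the window and say nothing of binding.

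The 2 days differed where their peaks were weak. Each deposited peak has a score from the authors' caller, and the percentile of a score within its own list was used as a measure of strength. Regions of day 7 alone had a median percentile of 17.1 in the day 7 list, and regions of day 3 alone a median of 17.1 in the day 3 list. Shared regions had a median of 57.4 by their day 7 peaks and of 58.4 by their day 3 peaks. In the weakest decile, 48.6% of day 7 regions had no partner at day 3 and 55.6% of day 3 regions had none at day 7. In the strongest decile these numbers were 0 of 3546 and 0 of 3625. Only 311 regions of day 7 alone (5.82%) and 340 of day 3 alone (5.39%) had a peak in the upper 50% of its list. The deposited thresholds of the 2 lists were close, with a lowest −log10 p of 40.19 at day 7 and 39.7 at day 3. Peaks were narrower at day 7, with a median of 878 bp, against 987 bp at day 3. Within 10 kb of a shared region lay 44.1% of regions of day 7 alone and 39.5% of those of day 3 alone.

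**Figure D1:**
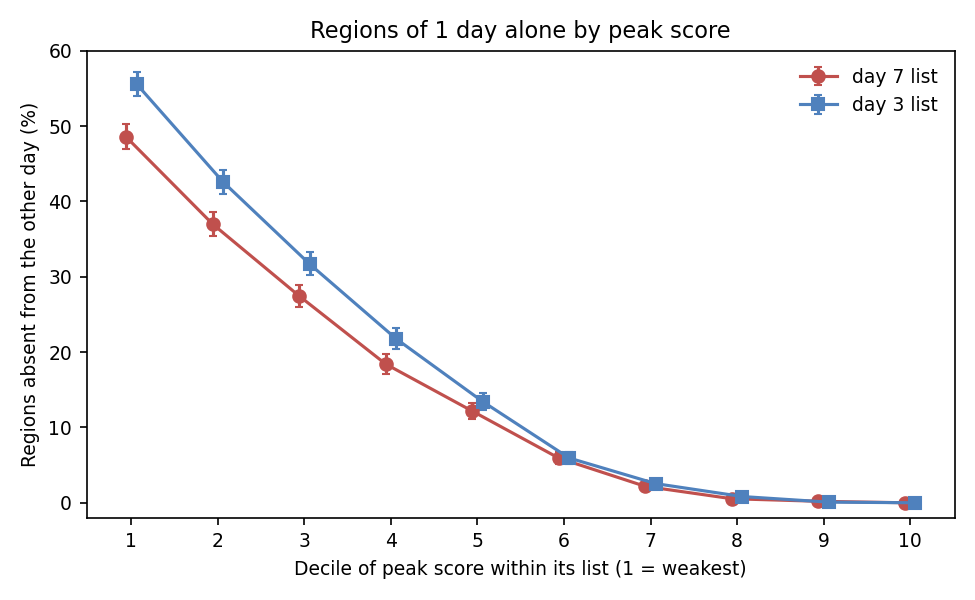
Share of a list's regions that the other day lacks (y axis, %), by decile of peak score within the list (x axis, 1 the weakest), for the day 7 list (circles) and the day 3 list (squares), with exact 95% Clopper-Pearson intervals. The share is 48.6% at day 7 and 55.6% at day 3 in decile 1, and 0 in decile 10 of both lists.

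The class of 1 day alone lay mostly away from promoters. Within 1 kb of a start site were 6.75% of regions of day 7 alone and 8.94% of those of day 3 alone, against 33.0% of shared regions. Of all 10781 promoter regions, 3.35% were of day 7 alone and 5.23% of day 3 alone. A further 43.6% of regions of day 7 alone and 46.7% of those of day 3 alone lay inside a gene. More than 50 kb from any protein-coding gene lay 21.4% of regions of day 7 alone and 15.4% of those of day 3 alone. Among the regions in the upper 50% of their list, the promoter share was 3.54% for day 7 alone (interval 1.78% to 6.24%). For day 3 alone it was 2.65% (1.22% to 4.97%), and these intervals overlap.

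Regions of day 7 alone were in the lists of unwounded epidermis more often than regions of day 3 alone, and less often than shared regions. The day 0 epidermal list held 43.6% of regions of day 7 alone and 14.4% of those of day 3 alone, a difference of 29.2 ± 1.60 percentage points (the half-width combines both exact 95% intervals). The day 80 epidermal list held 43.9% and 14.2%, a difference of 29.7 ± 1.60 points. The hair follicle list held 27.2% of regions of day 7 alone and 17.8% of those of day 3 alone, a smaller difference of 9.35 ± 1.53 points. Of shared regions the day 0 epidermal list held 70.4%, the day 80 epidermal list 70.3% and the hair follicle list 64.2%. None of these lists took part in forming the classes.

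The late lists of both wound types showed the same order. The partial wound list of day 80 held 47.8% of regions of day 7 alone and 17.1% of those of day 3 alone (difference 30.7 ± 1.64 points). The full wound list of day 80 held 46.8% and 17.6% (29.2 ± 1.65 points). The early full wound went the other way. Its day 7 list held 40.0% of regions of day 7 alone and 50.8% of those of day 3 alone, a difference of −10.8 ± 1.81 points. Of shared regions it held 88.1%. No other list held 21.1% of regions of day 7 alone and 30.1% of those of day 3 alone.

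Stronger peaks showed wider gaps in the epidermal lists and the day 80 lists of both wounds. Among regions in the upper 50% of their list, the day 0 epidermal list held 66.2% of those of day 7 alone and 8.24% of those of day 3 alone. The day 7 full wound list held 54.3% and 71.5%, a difference of −17.1 ± 7.52 points, a range that holds the −10.8 of all regions. For the hair follicle list the difference was 11.4 ± 6.80 points, a range that holds the 9.35 of all regions. The share of day 7 alone in the day 0 epidermal list was 33.3% up to percentile 10 of the day 7 list, 45.5% between percentiles 20 and 30, and 64.0% between percentiles 40 and 50. Over the same bands of the day 3 list the share of day 3 alone in that epidermal list was 14.3%, 16.6% and 12.3%. At promoters the gaps were narrower. The day 0 epidermal list held 44.6% of promoter regions of day 7 alone and 33.7% of those of day 3 alone, and the day 7 full wound list held 54.3% and 54.6%, a difference smaller than its half-width of 6.72 points.

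**Figure D2:**
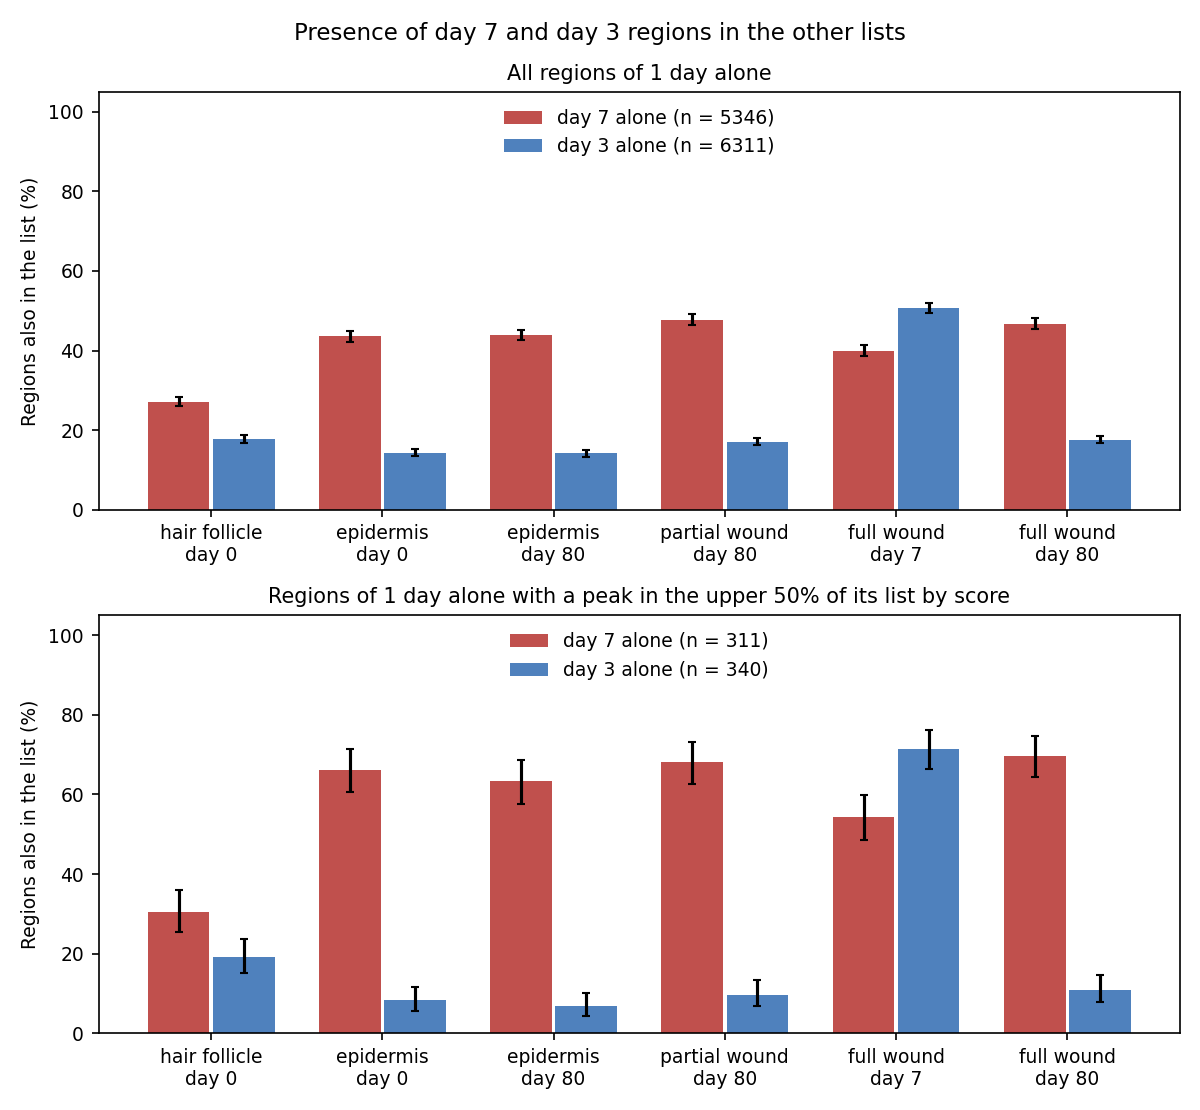
Percent of regions of day 7 alone (left bar of each pair) and of day 3 alone (right bar) that each of the other 6 lists also holds, for all regions (upper panel) and for regions with a peak in the upper 50% of its list by score (lower panel), with exact 95% Clopper-Pearson intervals. The day 7 bars are higher in 5 lists, and the day 3 bar is higher in the day 7 full wound list, in both panels.

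Sorted by the unwounded lists that held them, the classes were made up differently. Of regions of day 7 alone, 1848 (34.6%) were in an epidermal list and not in the hair follicle list, 480 (8.98%) in the hair follicle list alone, 972 (18.2%) in both kinds and 2046 (38.3%) in no unwounded list. Of regions of day 3 alone, 787 (12.5%) were epidermal only, 669 (10.6%) hair follicle only, 455 (7.21%) in both kinds and 4400 (69.7%) in no unwounded list. Of the regions of day 7 alone that were epidermal only, the partial wound list of day 80 held 77.0% and the day 7 full wound list 55.2%. Of the regions of day 3 alone that no unwounded list held, the partial wound list of day 80 held 7.09% and the day 7 full wound list 53.0%.

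Day 7 alone and both epidermal lists, without the hair follicle list, held 1166 regions. The genes with the most of them were Macrod2 with 4, then, among others, Naa11, Ddr2 and Chst15 with 3 each. Ddr2, a receptor for fibrillar collagen, had all 3 of its regions of day 7 alone in the 2 epidermal lists and in the later lists of both wounds, at score percentiles of 77.9, 65.0 and 47.5. Day 7 alone and the day 7 full wound, without any unwounded list, held 657 regions, led by Robo1 with 4, a receptor for the guidance cue Slit. Teddm3, Cyp7b1, Stpg1 and Hrh1 followed with 2 each. Day 3 alone and the hair follicle list, without either epidermal list, held 669 regions, led by Atp8a2, Dlgap2 and Arhgef28 with 3 each and Rasgrp3 and Col4a3 with 2 each. Day 3 alone and no other list held 1897 regions, led by Pdzrn3, Gmds, Vav3, Ank3 and Atxn1 with 4 each.

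Regions were next counted by gene. The nearest protein-coding gene within 50 kb took 35765 of the regions (86.1%), spread over 13632 genes. The day 7 count exceeded the day 3 count in 2131 genes (15.6%) and fell short of it in 3045 (22.3%), with 8456 (62.0%) equal. The day 7 count led by 2 or more in 447 genes (3.28%), and the day 3 count led by 2 or more in 643 (4.72%). No region of 1 day alone lay at 7860 genes (57.7%). Of the regions of 1 day alone that were assigned to genes, 44.0% were of day 7, so gene groups are read below against that share. The groups are lists of known genes, described by their counts and not tested.

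The BMP and TGF-beta pathways restrain keratinocyte growth, and BMP signals keep follicle stem cells at rest. Genes of these pathways, among them receptors, ligands, Smads and antagonists, had more regions of day 7 alone than of day 3 alone. The 23 genes of the list held 22 regions of day 7 alone and 10 of day 3 alone. Yet as many genes led at day 7 (6) as at day 3 (6), and the median difference was 0, as over all genes. Bmpr1b and Tgfbr3 held 15 of the 22. Bmpr1b, a type I BMP receptor, had 14 regions at day 7 and 6 at day 3, which with Macrod2 was the widest lead of day 7 among all genes. Its 8 regions of day 7 alone included chr3:141947980-141948994 and chr3:142040059-142041017, inside the gene, at score percentiles of 63.6 and 50.3. The 2 were in every other list except that of the hair follicle. Outside these 2, the regions of day 7 alone at Bmpr1b were weaker, with percentiles from 3.42 to 22.6. Of the 8 regions of day 7 alone the hair follicle list held 1 and the epidermal lists 3 at day 0 and 4 at day 80. Of all 14 regions of Bmpr1b, shared ones included, the hair follicle list held 4 and the epidermal lists 9 at day 0 and 9 at day 80.

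Tgfbr3, the betaglycan co-receptor, had 13 regions at day 7 and 7 at day 3. Its regions of day 7 alone lay inside the gene and were weak, with percentiles from 1.05 to 16.5, and its 1 region of day 3 alone had a percentile of 44.7 and was in all 6 other lists. Tgfbr2, the type II TGF-beta receptor, had 7 regions at day 7 and 5 at day 3. Bmpr1a, the other type I BMP receptor of the skin, went the other way with 2 regions at day 7 and 4 at day 3. Its promoter region was of day 3 alone, at a percentile of 4.18. Of the 22 regions of day 7 alone in this list, both epidermal lists held 11 and the partial wound list of day 80 held 10. The early full wound list held 5 of these 22 and 8 of the 10 of day 3 alone.

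Terminal differentiation genes, which build the cornified layer, mostly had more regions at day 7. Of 13 such genes with a region, 8 had more regions at day 7, 1 had fewer and 4 had as many, with a median difference of 1 against 0 over all genes. They held 14 regions of day 7 alone and 3 of day 3 alone. Tgm3 had 7 regions at day 7 and 3 at day 3. Its promoter region, chr2:130011925-130013059, covered the sequence shown above, had a percentile of 27.8 in the day 7 list, and was in both epidermal lists, the partial wound list of day 80 and the day 7 full wound list. A second region inside the gene, chr2:130039924-130041019, had a percentile of 44.8 and was in all 6 other lists. The early full wound list held all 8 regions of Tgm3 from both days.

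Ivl, which encodes the envelope protein involucrin, had 4 regions at day 7 and 2 at day 3. Its stronger region of day 7 alone, chr3:92540246-92540827, lay 32908 bp from the start site and was in both epidermal lists. Krt1, the first keratin of suprabasal cells, had 1 region at day 7 and 0 at day 3. Dsg1a and Dsc1, cadherins of upper-layer desmosomes, had 3 and 5 regions at day 7, against 2 and 4 at day 3. Ovol1 and Zfp750, transcription factors of keratinocyte differentiation, had 4 and 2 at day 7, against 3 and 1 at day 3. Grhl3, a barrier transcription factor, was the 1 gene of the list with more at day 3, with 4 regions at day 7 and 5 at day 3. Krt80, a type II keratin of differentiating epithelia that was not on the list, had 13 regions at day 7 and 7 at day 3, and its strongest region of day 7 alone, chr15:101354075-101354852, had a percentile of 59.9 and was in the hair follicle and early full wound lists.

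**Figure D3:**
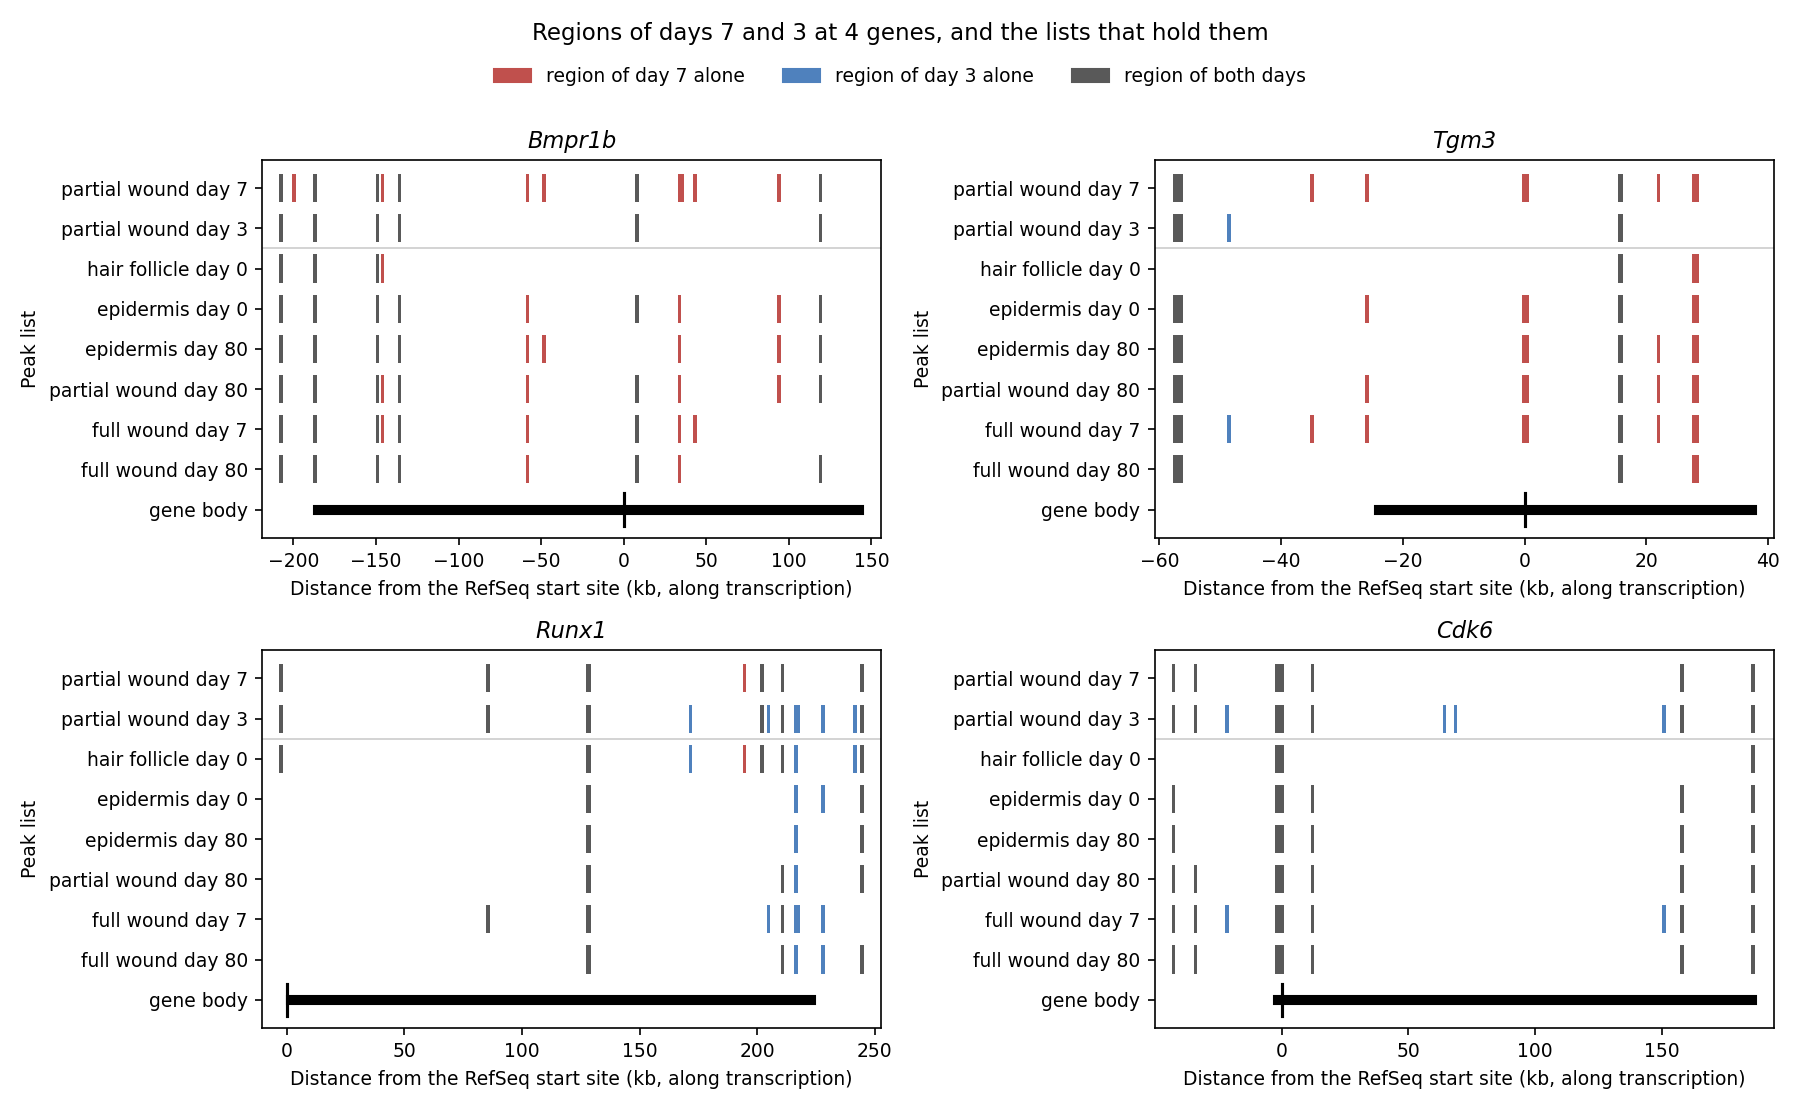
Regions of the day 7 and day 3 partial wound lists at Bmpr1b, Tgm3, Runx1 and Cdk6 by distance from the RefSeq start site (x axis, kb, in the direction of transcription; the upright tick marks the start site and the bar the gene), with a row for each list that holds the region and narrow regions widened to be visible. At Bmpr1b and Tgm3 8 of 8 and 5 of 6 regions of 1 day alone are of day 7, and at Runx1 and Cdk6 6 of 7 and 4 of 4 are of day 3.

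Cell junction and polarity genes held 23 regions of day 7 alone and 15 of day 3 alone, with 5 of 19 genes leading at day 7 and 5 at day 3. Pard3, a core protein of the Par polarity complex, had 23 regions at day 7 and 17 at day 3 and made up much of the list's lead. Its partner Pard6b had 6 at day 7 and 4 at day 3. Dsg2, a desmosomal cadherin, had 3 at day 7 and 1 at day 3. Llgl1, the polarity protein whose promoter is shown above, was not on the list; its promoter region had a percentile of 61.1 in the day 7 list and was in every other list except the early full wound. Lemd3, an inner nuclear membrane protein that binds Smads, had the strongest promoter region of day 7 alone, with a percentile of 84.5, and 5 of the other 6 lists held it, all but the hair follicle.

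Growth signals gave smaller differences in the number of regions. Wnt genes held 12 regions of day 7 alone and 8 of day 3 alone, with 7 of 16 genes leading at day 7 and 3 at day 3. Lef1, a transcription factor that acts with beta-catenin, had 2 regions at day 7 and 0 at day 3. Wnt7b, a ligand, had 6 at day 7 and 8 at day 3. Wnt3, a ligand kept in the epidermal stem cell list, had 4 at day 7 and 1 at day 3, and its promoter region had a percentile of 22.0 and was in the epidermal list of day 80 and in both full wound lists. Hedgehog genes held 5 regions of day 7 alone and 2 of day 3 alone. That day 7 share of 71.4% was no smaller than the 68.8% of the BMP and TGF-beta genes. The hedgehog effector Gli2 had 16 regions at day 7 and 13 at day 3. Genes of the EGF receptor and MAPK list held 13 regions of day 7 alone and 9 of day 3 alone. Egfr, the receptor of epidermal growth factor, had 15 at day 7 and 12 at day 3, while Areg, a ligand of that receptor, had 2 at day 7 and 4 at day 3. The list of gp130 and STAT3 genes held 13 regions of day 7 alone and 12 of day 3 alone. Its receptor genes Il6ra and Il22ra1 had 6 and 3 regions at day 7, against 4 and 1 at day 3. Osmr, the oncostatin M receptor, had 7 at day 7 and 10 at day 3, and Stat3, the transcription factor downstream of them, had 4 at day 7 and 4 at day 3.

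Genes of hair follicle stem cells held 18 regions of day 7 alone and 30 of day 3 alone, with 1 of 19 genes leading at day 7, 7 at day 3 and 11 equal. The share of day 7 among these regions, 37.5%, was near the 44.0% over all genes, and Runx1 held 6 of the 30 of day 3 alone. Of those 30, the hair follicle list held 12 and the day 7 full wound list 10, and of the 18 of day 7 alone these lists held 7 and 1. Runx1, a transcription factor of follicle stem cell activation, had 7 regions at day 7 and 12 at day 3. Its strongest region of day 3 alone, chr16:92620651-92621708, inside the gene, had a percentile of 61.5 and was in the day 7 full wound list and no other. The next, chr16:92609222-92610045, had a percentile of 57.6 and was in all 6 other lists, and so in 7 of the 8 lists of the series.

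The other factors of these cells differed by fewer regions. Foxc1, which keeps follicle stem cells quiescent, had 2 regions at day 7 and 4 at day 3, and the 2 of day 3 alone had percentiles of 1.72 and 0.919, next to the deposited threshold. Barx2 had 9 at day 7 and 11 at day 3. Sox9 and Lhx2, master regulators of the follicle stem cell, had 5 and 5 at day 7, against 6 and 6 at day 3. Nfatc1, a quiescence factor, had 9 at day 7 and 8 at day 3. The surface marker Cd34 had 4 on each day, all 4 shared, and the receptor Lgr5 had 7 on each day, 6 of them shared. The Lgr5 promoter region was of day 3 alone, with a percentile of 27.1, and was in the hair follicle list and the day 0 epidermal list. Of the 8 regions of Lgr5 the hair follicle list held 5, the day 0 epidermal list 1 and the others 0.

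Basal keratinocyte genes, which mark the attached layer of the epidermis, held more regions of day 3 alone. They held 8 regions of day 7 alone and 20 of day 3 alone, a day 7 share of 28.6%, with 1 of 15 genes leading at day 7 and 7 at day 3. Trp63, a transcription factor on which the epidermis depends, had 13 regions at day 7 and 17 at day 3. None of its regions was of day 7 alone, and of the 4 of day 3 alone 3 were in no other list and 1 was in the early full wound list. Dst, a plakin of the hemidesmosome, had 13 at day 7 and 16 at day 3, and Col17a1 had 4 at day 7 and 6 at day 3. The Col17a1 promoter region shown above, chr19:47691522-47692341, had a percentile of 14.0 in the day 3 list and was in the hair follicle list and the epidermal list of day 80. Krt14 had 2 regions at day 7 and 3 at day 3, and Krt5 had 1 on each day, so both lists held the keratin pair that defines basal cells.

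Epidermal stem cell genes were even, with 11 regions of day 7 alone and 11 of day 3 alone. Gata3 had 5 regions and Klf5 had 3 on each day, all of them shared. Tfap2a had 6 at day 7 and 8 at day 3, and Cd44 had 12 at day 7 and 14 at day 3. Bmp4 had 2 at day 7 and 1 at day 3, and its region of day 7 alone, at a percentile of 1.67, was in every other list except that of the hair follicle.

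Cell cycle genes held 3 regions of day 7 alone and 12 of day 3 alone, with 1 of 17 genes leading at day 7 and 6 at day 3. The day 7 share was 20%, against 44.0% over all genes. Housekeeping genes had the same share of 20%, from fewer regions. Cdk6, a G1 kinase, had 6 regions at day 7 and 10 at day 3. Its strongest region of day 3 alone, chr5:3321704-3322836, had a percentile of 55.1 and was in the day 7 full wound list and no other. Ccne1, the cyclin of S phase entry, had 4 at day 7 and 6 at day 3. Of the 12 regions of day 3 alone, the early full wound list held 7 and the partial wound list of day 80 held 1.

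Notch pathway genes held 6 regions of day 7 alone and 13 of day 3 alone, with 2 of 12 genes leading at day 7 and 7 at day 3. The receptor Notch1 had 2 regions at day 7 and 5 at day 3, and the coactivator Maml2 had 9 at day 7 and 11 at day 3. Jag1, a ligand, had 5 at day 7 and 3 at day 3, and both of its regions of day 7 alone were in both epidermal lists. Genes of mesenchymal plasticity held 4 regions of day 7 alone and 10 of day 3 alone, with 1 of 8 genes leading at day 7 and 5 at day 3. Runx2 led this list with 10 at day 7 and 13 at day 3. Of those 10 regions of day 3 alone the early full wound list held 7.

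Immediate early genes held 4 regions of day 7 alone and 9 of day 3 alone, with 1 of 16 genes leading at day 7 and 6 at day 3. Each difference within this list was of a single region. Fos had 7 at day 7 and 8 at day 3, Jun had 4 at day 7 and 5 at day 3, and Fosl1 had 1 on each day. Wound epithelium genes held 8 regions of day 7 alone and 12 of day 3 alone. Itga5, the fibronectin receptor subunit, and Plau, the urokinase protease, each had 4 at day 7 and 6 at day 3, while Tnc, the matrix protein tenascin C, had 7 at day 7 and 5 at day 3. The wound keratins Krt6a and Krt17 had 2 and 1 regions on each day, all of them shared. Actin and migration genes held 10 regions of day 7 alone and 16 of day 3 alone, and Actn1, an actin cross-linker, had 7 at day 7 and 11 at day 3.

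Inflammation genes held 11 regions of day 7 alone and 15 of day 3 alone, a share of day 7 close to that over all genes. Cxcl1 was the exception, with 2 regions at day 7 and 5 at day 3. Its promoter region, chr5:90890676-90891665, was among the weakest of the day 3 list, with a percentile of 4.35, and was in all 6 other lists. Housekeeping genes held 1 region of day 7 alone and 4 of day 3 alone, with 21 shared. Hippo pathway genes held 9 of day 7 alone and 11 of day 3 alone, among them Tead1, a DNA-binding partner of Yap, with 14 regions at day 7 and 11 at day 3, and Ccn2, a Yap target, with 1 at day 7 and 3 at day 3. Hypoxia and glycolysis genes held 6 of day 7 alone and 8 of day 3 alone, sebaceous gland and isthmus genes 4 of each, and interferon genes 1 of day 7 alone and 3 of day 3 alone.

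**Figure D4:**
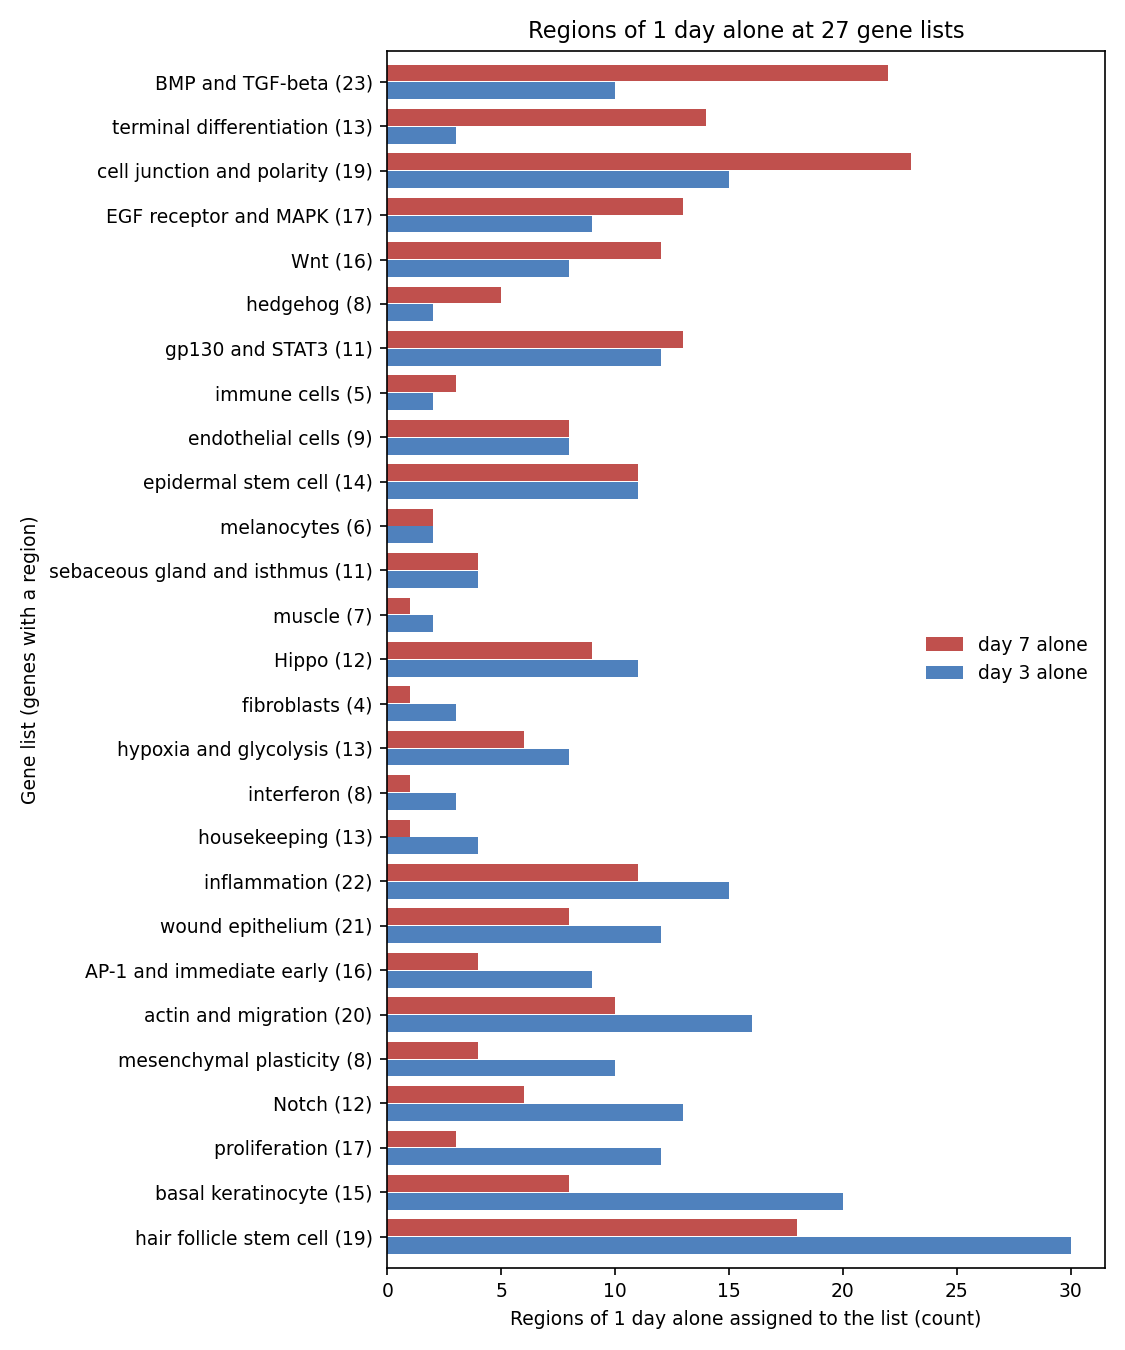
Number of regions of day 7 alone (upper bar of each pair) and of day 3 alone (lower bar) assigned to the genes of each of 27 lists (y axis, number of genes with a region in brackets), ordered by the difference. BMP and TGF-beta genes stand at the top with 22 and 10 regions, and basal keratinocyte genes, with 8 and 20, and hair follicle stem cell genes, with 18 and 30, share the lowest difference.

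Across all genes, day 7 led most at Bmpr1b and Macrod2, by 8 regions each. Among the next was Robo1, with 12 regions at day 7 and 5 at day 3. Macrod2 had 52 regions at day 7 and 44 at day 3 over 1998 kb. The strongest region of day 7 alone at Robo1, chr16:72387824-72388556, had a percentile of 70.7 and was in every other list except that of the hair follicle. The widest leads of day 3 were at Aff3, with 5 regions at day 7 and 11 at day 3, Pdzrn3, with 10 and 16, and Arhgef28, with 16 and 22. Rnf150, a RING finger gene, had 0 regions at day 7 and 5 at day 3, and Ehd3, an endocytic recycling protein, had 1 at day 7 and 6 at day 3. Of the 16 regions of Pdzrn3 the hair follicle list held 8, and the epidermal and full wound lists held 0 or 1 each. At Rnf150 and at Ehd3 the hair follicle list held 2 regions, and the epidermal and full wound lists also held 0 or 1 each.

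**Figure D5:**
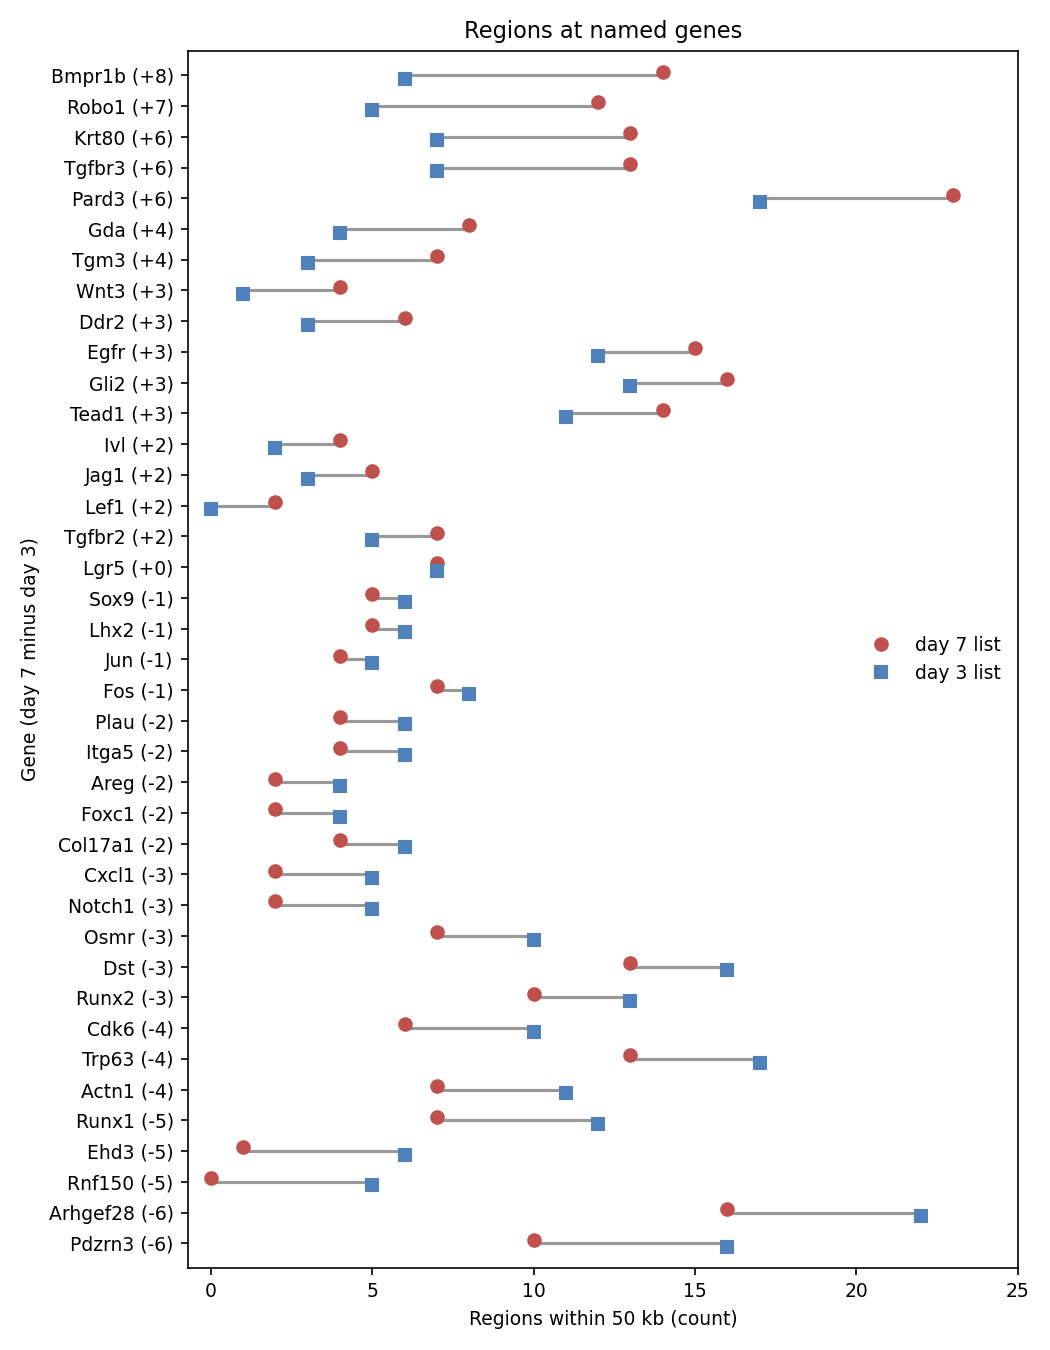
Number of regions within 50 kb (x axis) in the day 7 list (circles) and the day 3 list (squares) at 39 of the genes described (y axis, with the difference of day 7 minus day 3), ordered by that difference. Bmpr1b has 14 regions at day 7 and 6 at day 3, and Pdzrn3 has 10 at day 7 and 16 at day 3.

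The strongest regions of each class were mostly found in other lists too. Of 7 of the strongest assigned regions of day 7 alone, at Fam177b, Lemd3, Gda, Uqcc1, Avl9, Ddr2 and Cped1, 6 were in both epidermal lists, all 7 were in both lists of wounds at day 80, and 1 was in the hair follicle list. Of the 8 strongest of day 3 alone, at Lrrc74b, C9, Srgap1, Rala, Snapc1, Tsku, E230025N22Rik and Pvr, all 8 were in the day 7 full wound list, 3 were in the hair follicle list, and only that of Rala was in an epidermal list. Tsku is a secreted regulator of TGF-beta and Wnt signals, and its region of day 3 alone, chr7:98390858-98392458, had a percentile of 78.1. Pvr is an adhesion receptor of the nectin family, and its region lay inside the gene at a percentile of 77.9.

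Promoters of the 2 classes differed in base composition. Promoters that overlapped a region of day 7 alone (215) had a median of 14 CG dinucleotides in their 300 bases (quartiles 5 and 25), and those of day 3 alone (400) a median of 23 (13 and 33). Promoters of shared regions (9749) had a median of 22, those without a region of either day (10904) of 4, and all 21263 promoters of 13. A GC box stood in 54.0% of promoters of day 7 alone (interval 47.0% to 60.8%). For day 3 alone the share was 67.0% (62.2% to 71.6%), near the 68.9% of promoters of shared regions. Of all promoters 46.2% had one. A TATA box stood in 10.7% of promoters of day 7 alone (interval 6.90% to 15.6%). For day 3 alone the share was 5.75% (3.68% to 8.50%), and these intervals overlap. It was 5.92% in promoters of shared regions and 12.6% in all. The AP-1 letters stood in 8.84% of promoters of day 7 alone (interval 5.40% to 13.5%) and in 6.25% of those of day 3 alone (4.09% to 9.09%), intervals that overlap and that both hold the 6.99% of all promoters. The CCAAT box stood in 34.4% of promoters of day 7 alone (interval 28.1% to 41.2%). For day 3 alone the share was 28.8% (24.4% to 33.5%), and these intervals overlap too. It was 40.0% in promoters of shared regions and 38.2% in all. NF-kB letters were in 1 promoter of day 7 alone (0.465%) and in 4 of day 3 alone, too few to compare.

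Markers of other skin cells had regions in both lists, to differing extents. Over all protein-coding genes, 13632 of 21900 had a region. Of the 14 immune markers listed 5 genes had a region, with 3 regions of day 7 alone and 2 of day 3 alone, and of 12 fibroblast markers 4 had one, with 1 and 3. Of 11 endothelial markers 9 had one, with 8 regions of day 7 alone and 8 of day 3 alone. Tek, an endothelial receptor kinase, had 5 regions at day 7 and 2 at day 3, and its promoter region of day 7 alone had a percentile of 55.3 and was also in the hair follicle list and the partial wound list of day 80. Flt1 had 2 at day 7 and 4 at day 3. Of 10 melanocyte markers 6 had a region, with 2 of day 7 alone and 2 of day 3 alone. Of 11 muscle markers 7 had a region, with 1 of day 7 alone and 2 of day 3 alone. The part of other cells in the differences was not tested. On chromosome X lay 138 regions of day 7 alone and 70 of day 3 alone, and on Y 0 and 3; without both chromosomes the 6 differences in share were between −10.7 and 30.7 points and kept their signs.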

How the data were processed

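ATAC-seq had been run on sorted skin cells in 24 samples of 8 groups, and 8 deposited narrowPeak lists, 1 per group, were used. The submitters' processing notes name MACS2 2.1.1.20160309, bedtools 2.29.2, Bowtie and Picard with the build mm10, without saying what each did. Each deposited peak has a score and a fold enrichment, which is a ratio over background as the authors' caller wrote it. The deposited −log10 p also describes a peak within its list. All 3 were used to describe or rank peaks within a list, and the lowest −log10 p of both days' lists was also set side by side. The peak numbering had gaps, so not all numbered calls are in the lists. The numbers present made up 34.4% of the highest number at day 7 and 32.8% at day 3. How many calls were made in all is not given. Read depth is unknown. Peaks of the day 0 epidermal list are named as a day 7 control; it was used as the day 0 list it was deposited as. Columns of other per-sample values numbered 0.

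Peaks of both days were merged at an overlap of 1 bp with Python 3.11.15, numpy 2.4.6 and pandas 2.3.3, and intervals were computed with scipy 1.17.1. A region went to the nearest of 21900 protein-coding genes of RefSeq GRCm38.p6 within 50 kb. Start sites came from the RefSeq promoter table for 17492 of them, and both gene ends stood in for the rest; regions within 1 kb were promoters. Exons are not given in the table and were not analysed here, nor was sequence under distal peaks. The merging of peaks, the overlap rules and the region classes were tested on simulated data, and the other steps were not. Region classes, gene lists and tests were chosen with earlier results of these data known. Some genes that the rule names are not reported here. Genes were named by rule: the 8 widest leads in each direction, the genes of the 8 strongest regions and 5 strongest promoters of each class, up to 3 members per list and direction with a lead of 2 or more, 16 fixed genes, and 5 per subclass of 4. Other genes, among them members with a lead of 1, were chosen after their values were seen, as were the NF-kB motif and the genes of the plots.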

Additional observations from a re-analysis of the deposited data

How the results depend on the processing

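With only regions of 1 day alone whose peak lay in the upper 50% of its list, 311 of day 7 and 340 of day 3 were left. The differences in share were then 11.4 points for the hair follicle list, 58.0 and 56.6 for the epidermal lists of days 0 and 80, 58.5 for the partial wound at day 80, −17.1 for the full wound at day 7 and 58.9 for it at day 80. Promoter shares were 3.54% for day 7 alone and 2.65% for day 3 alone, and genes with a lead of 2 or more were 9 for day 7 and 8 for day 3. With both lists reduced to their upper 50%, 69.7% of regions were shared. A flank of 500 bp around peaks gave 72.4% shared, with 5242 regions of day 7 alone and 6205 of day 3 alone. Promoters within 2 kb gave 9.11% for day 7 alone and 11.5% for day 3 alone. The other 57 values under alternatives stayed within the spread or within 1.5 times the count; with lists of equal length day 7 alone had 5665 and day 3 alone 5838 regions. Of 86 named genes with a lead of 2 or more, 85 kept its direction with equal lists, all but Foxc1, 78 with a window of 10 kb and 29 in the upper 50%, where the other 57 had a lead of 0. No lead turned round under the 6 alternatives run on these genes.

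The cause of these shifts was not tested. No paired analysis was possible because each group has 1 list, and for the same reason no replicate was left out. Absence from a list is absence above the deposited threshold, not absence of open chromatin, and most regions of 1 day alone lay in the weaker 50% of their list. Read counts were not used here, so levels within shared regions were not compared. A nearest gene is not a shown target.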

Other observations

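MicroRNA genes were looked up in the same way, with mature sequences from RefSeq (GRCm38.p6), seed bases 2 to 8 in capitals; they were chosen after their values were seen, because they are well known in skin. Of 1005 hairpins, 1 was overlapped by a region of day 7 alone, 8 by a region of day 3 alone and 72 by a shared region. Within 5 kb these numbers were 29, 41 and 309. miR-221 and miR-222 share a seed and a cluster on chromosome X.
miR-205-5p: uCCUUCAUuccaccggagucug
miR-203-3p: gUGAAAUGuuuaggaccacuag
miR-221-3p: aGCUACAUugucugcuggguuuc
miR-222-3p: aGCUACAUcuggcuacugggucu

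The hairpin of miR-205, an abundant microRNA of stratified epithelia, lay 1157 bp from a region of day 7 alone, which had a score percentile of 5.96 and was in the hair follicle list, both epidermal lists and the full wound list of day 80. The hairpin of miR-203, which promotes differentiation above the basal layer, lay 40 bp from a region of day 3 alone, which had a percentile of 17.7 and was in the hair follicle list and all lists of day 80. miR-221 and miR-222 lay 4228 and 3645 bp from 1 region of day 7 alone with a percentile of 8.52, which every other list except the day 7 full wound held. All of these regions were weak, and their nearness to a hairpin does not tie them to it.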
